A study of Mus musculus with 11 samples.

Results

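The miR-17-92 cluster was followed through mouse sperm, oocytes and 2PN (pronuclear) embryos as 6 mature mouse miRNAs, mmu-miR-17-5p, mmu-miR-18a-5p, mmu-miR-19a-3p, mmu-miR-19b-3p, mmu-miR-20a-5p and mmu-miR-92a-3p, written without the prefix from here on. They are the arms by which the hairpins on chromosome 14 are usually known, chosen by name from a count table of 2304 features (1592 mature miRNAs and 712 endo-siRNAs), and all 6 are listed there. Small RNA was sequenced in 11 libraries from adult animals on the C57BL/6 background. Cauda epididymal sperm gave 2 libraries from males lacking Dicer in the germline (conditional knockout, cKO), 3 from males lacking Drosha there, and 2 from wild-type (WT) males. Single libraries came from 2PN embryos made by injecting Dicer cKO, Drosha cKO or WT sperm into an oocyte, and from superovulated WT oocytes. Both cKO lines were made with floxed alleles and Cre; the labels name no Cre line and do not say whether replicate libraries are separate animals, so the spread behind each p-value may be technical. No messenger RNA was profiled, and the knockouts themselves were therefore not checked.

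miR-17-92 is a polycistron: 1 primary transcript carries all of its hairpins, which the nuclear enzyme Drosha cuts out and the cytoplasmic enzyme Dicer cuts into mature miRNAs. A miRNA recognises its targets mainly through its seed, bases 2 to 8 from the 5′ end, and the cluster mixes several seeds. It is known for promoting proliferation and survival and as an oncogenic cluster, and it is expressed in dividing cells, male germ cells among them.

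The mature sequences are shown because the seeds set the families used below and because some members differ by 1 or 2 bases. Capitals mark the seed, and coordinates are those of the mature arm on the plus strand of GRCm38 in RefSeq.
miR-17-5p (chr14:115043684-115043706): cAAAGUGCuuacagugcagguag
miR-18a-5p (chr14:115043867-115043889): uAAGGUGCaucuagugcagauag
miR-19a-3p (chr14:115044048-115044070): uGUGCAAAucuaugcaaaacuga
miR-20a-5p (chr14:115044183-115044205): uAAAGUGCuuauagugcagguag
miR-19b-3p (chr14:115044358-115044380): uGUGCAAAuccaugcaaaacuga
miR-92a-3p (chr14:115044476-115044496): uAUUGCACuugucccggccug

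The 6 hairpins span 836 bases of chromosome 14, from 115043671 to 115044506, in the order listed. The host gene Mir17hg is annotated in the same table from 115044390 to 115046728, so that the hairpin of miR-92a-3p lies inside its annotated span and the hairpins of miR-17, miR-18a, miR-19a and miR-20a lie before it. The 6 members carry 4 seeds: miR-17-5p shares AAAGUGC with miR-20a-5p, miR-19a-3p shares GUGCAAA with miR-19b-3p, and miR-18a-5p (AAGGUGC) and miR-92a-3p (AUUGCAC) stand alone. Counting from 1 at the 5′ end and reading from the first named to the second, miR-19a-3p and miR-19b-3p differ by U11C alone, and miR-17-5p and miR-20a-5p by C1U and C12U. The sources used here do not say how the authors assigned reads that fit more than 1 miRNA, so the split between such pairs is uncertain. For miR-19b-3p and miR-92a-3p a second hairpin, in the miR-106a-363 cluster on chromosome X, gives the identical mature sequence, and the table holds 1 row for each.

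Listed reads numbered 122989 and 108141 in Dicer cKO sperm, 100934, 12003 and 15921 in Drosha cKO sperm, and 73377 and 278890 in WT sperm. The 2PN libraries held 2951 with Dicer cKO sperm, 8967 with Drosha cKO sperm and 3243 with WT sperm, and the oocyte library held 5530. Levels are CPM, a feature's part of the listed reads of its library scaled to 1 common total, and 1 read is worth 3.59 to 83.3 CPM in sperm and 111.5 to 338.9 CPM in the other libraries. Log2 changes come from an edgeR fit that also applies TMM factors, which scale out differences in composition. These were 1.05 in both Dicer cKO libraries, 1.20 to 1.31 in Drosha cKO libraries, and 0.907 and 0.493 in the WT libraries, so WT replicate 2 stands apart and the fitted falls of the members are larger than their ratios of CPM. Drosha cKO replicates 2 and 3 stand apart by their low depth.

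The miR-17-92 members were lower in both kinds of cKO sperm, and in WT sperm they made up a large part of all listed reads. Together the 6 members took 3.23% and 2.88% of listed reads with Dicer cKO, 3.22%, 2.72% and 2.91% with Drosha cKO, and 16.9% and 20.7% in WT sperm. The means were 3.06% ± 0.252 (SD, n = 2) in Dicer cKO, 2.95% ± 0.252 (SD, n = 3) in Drosha cKO and 18.8% ± 2.66 (SD, n = 2) in WT sperm, so the WT share was 6.15 times that of Dicer cKO and 6.36 times that of Drosha cKO sperm. No cKO library came near a WT library, and the 5 cKO libraries lay close to each other. In bulk samples, fewer cells of a type and less RNA per cell cannot be told apart.

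Of the 6 members, 5 passed edgeR's filter on low counts, among 335 features tested, and miR-92a-3p did not. In Dicer cKO sperm 4 of the 5 were called lower (edgeR, Benjamini-Hochberg adjusted p under 0.05), and miR-17-5p did not pass, while 31% of all tested features were called lower. In Drosha cKO sperm all 5 tested members were called lower, against 33.1% of all tested features. The median log2 change of the 5 was −3.14 in Dicer cKO and −3.59 in Drosha cKO sperm, beside 0.03 and 0.05 over all tested features. The last 2 values are set largely by the TMM scaling, which places the bulk of features near 0. With library totals alone the median of all tested features was 0.60 and 1.04. Without both shallow Drosha cKO libraries the count for Dicer cKO was 5. The share of all features called lower is not given for that fit, so this count has no background beside it. Both comparisons use the same 2 WT libraries.

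**Figure D1:**
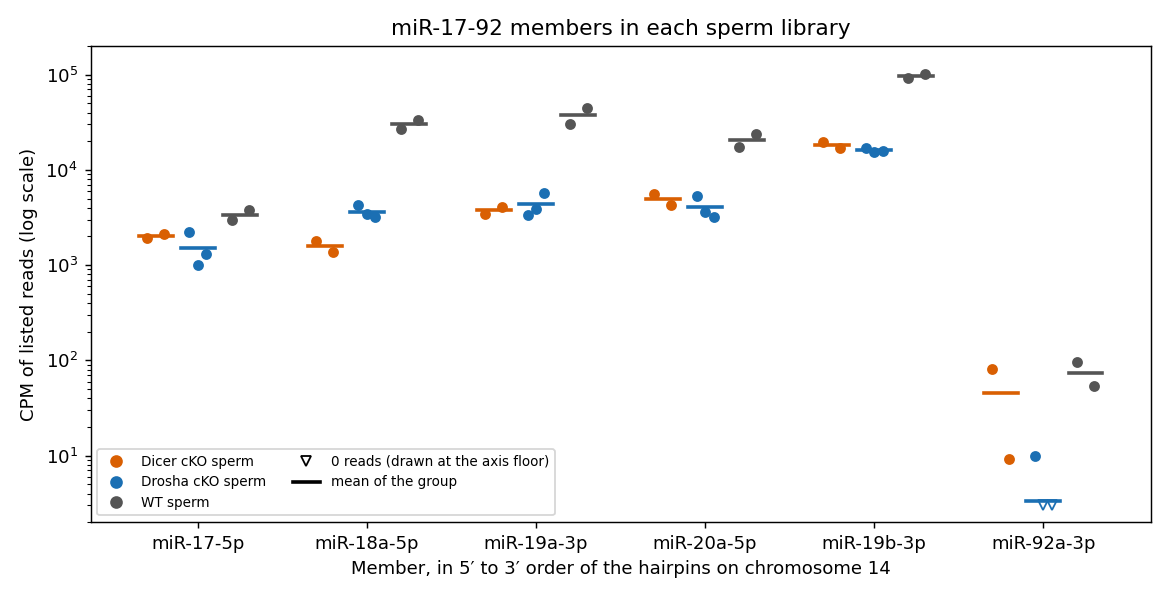
CPM of listed reads on a log scale for each member, in the order of the hairpins on chromosome 14, with each point 1 sperm library and each bar the mean of its group. The WT points of the first 5 members lie above all cKO points, with the widest gap for miR-18a-5p in Dicer cKO sperm, and miR-92a-3p stays under 100 CPM in every library.

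miR-19b-3p, which with miR-19a-3p carries the seed credited with much of the cluster's oncogenic activity, was the most abundant member in each sperm library. It stood at 19563 and 16913 CPM in Dicer cKO sperm, at 16962, 15330 and 15703 CPM in Drosha cKO sperm, and at 91364 and 101201 CPM in WT sperm. Its rank among all listed features was 14 to 22 in the cKO libraries and 1 in both WT libraries. The WT and cKO ranges are far apart, and the 5 cKO values are within a narrow band. The log2 change was −3.14 (SE 0.457, edgeR adjusted p = 0.000113) in Dicer cKO sperm and −3.59 (SE 0.399, edgeR adjusted p = 1.08e-05) in Drosha cKO sperm. The Dicer call was lost with limma on log2(RPM + 1) and log2(RPM + 10) (adjusted p = 0.0722 and 0.0771, with 0.0771 the highest over all alternatives).

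Its sister miR-19a-3p had 3415 and 4097 CPM in Dicer cKO sperm, 3388, 3916 and 5716 CPM in Drosha cKO sperm, and 30500 and 44121 CPM in WT sperm. No cKO value reaches a WT value, and the Dicer cKO values lie within the Drosha cKO range. The fitted log2 change was −4.11 with Dicer cKO (SE 0.559, edgeR adjusted p = 6.78e-05) and −4.17 with Drosha cKO (SE 0.479, edgeR adjusted p = 1.08e-05). The reads of miR-19b-3p per read of miR-19a-3p were 5.73 and 4.13 in Dicer cKO, 5.01, 3.91 and 2.75 in Drosha cKO, and 2.996 and 2.29 in WT sperm, so that this ratio overlapped between Drosha cKO and WT libraries.

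miR-18a-5p, the only member with its seed, showed the largest fitted fall of the members in Dicer cKO sperm. Its levels were 1797 and 1387 CPM in Dicer cKO sperm, 4320, 3416 and 3203 CPM in Drosha cKO sperm, and 26602 and 33644 CPM in WT sperm. The 3 groups did not overlap, with Dicer cKO lowest and Drosha cKO between. The log2 change was −5.01 (SE 0.574, edgeR adjusted p = 1.46e-05) in Dicer cKO and −4.05 (SE 0.469, edgeR adjusted p = 1.08e-05) in Drosha cKO sperm. Set directly against each other, Dicer cKO over Drosha cKO sperm gave −0.95 (SE 0.464, 95% interval −1.94 to 0.03), which did not pass (edgeR adjusted p = 0.271).

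miR-20a-5p and miR-17-5p share a seed that is known to act on cell cycle brakes such as Cdkn1a. miR-20a-5p had 5545 and 4254 CPM in Dicer cKO sperm, 5300.5, 3582 and 3203 CPM in Drosha cKO sperm, and 17567 and 23884 CPM in WT sperm. No cKO value reached a WT value, while the Dicer cKO and Drosha cKO ranges overlapped. Its log2 change was −2.86 with Dicer cKO (SE 0.550, edgeR adjusted p = 0.000693) and −3.38 with Drosha cKO (SE 0.485, edgeR adjusted p = 7.54e-05). The Dicer call was lost with limma on log2(RPM + 1) and log2(RPM + 10) (adjusted p = 0.098 and 0.116, with 0.116 the highest over all alternatives). miR-17-5p stood at 1943 and 2118 CPM in Dicer cKO sperm, at 2249, 999.8 and 1319 CPM in Drosha cKO sperm, and at 2971 and 3829 CPM in WT sperm. Its cKO and WT values did not overlap either, but the gap was small. The change of −1.52 in Dicer cKO sperm (SE 0.613, edgeR adjusted p = 0.0523) did not pass, and that of −2.13 in Drosha cKO sperm (SE 0.554, edgeR adjusted p = 0.0048) did. The Dicer value passed in 7 of 19 alternatives. With edgeR these were DESeq2's size factors (adjusted p = 0.0295), miRNAs alone (0.0206), the replicate block (0.0283), and fits without WT replicate 1 (0.0122), Drosha cKO replicate 2 (0.0476) or both shallow Drosha cKO libraries (0.0173). The last was DESeq2 itself (adjusted p = 0.0132), and over all alternatives the adjusted p ran from 0.0122 to 0.764. The Drosha call was lost with library totals alone (edgeR adjusted p = 0.0555) and with limma on log2(RPM + 10) (adjusted p = 0.0689), within a range over alternatives of 9.79e-06 to 0.0689.

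All 5 tested members had CPM below both WT libraries in every cKO library. Such separation held for 34.9% of tested features in Dicer cKO and for 30.1% in Drosha cKO sperm. A level set against total listed reads depends on what else those reads hold. On the authors' RPM scale, whose divisor is larger than the listed reads, the 6 members summed to 1431 and 2018 RPM in Dicer cKO, 869.0, 792.7 and 615.3 RPM in Drosha cKO, and 3645 and 20785 RPM in WT sperm. On that scale too no cKO library reached a WT library, but WT replicate 2 was 5.70 times WT replicate 1. Dicer cKO libraries were all above Drosha cKO libraries in RPM, while their shares of listed reads overlapped. With limma on log2(RPM + 1), where the WT libraries spread more, 2 of the 5 tested members were called lower in Dicer cKO and 5 in Drosha cKO sperm. The share of all features called lower is not given for that fit, so these counts have no background beside them.

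miR-92a-3p, known for its roles in blood vessels and blood cells, was nearly missing from sperm although it is encoded at the end of the same transcript. It had 10 and 1 reads in Dicer cKO sperm, 1, 0 and 0 reads in Drosha cKO sperm, and 7 and 15 reads in WT sperm. Over all sperm libraries that is 34 reads, beside 41309 of miR-19b-3p, whose hairpin precedes it on the transcript. In WT sperm it took 0.0564% and 0.0260% of the 6-member reads, which corresponds to 95.4 and 53.8 CPM. With reads summed over libraries, Dicer cKO was at 0.762 times the WT level (counting interval 0.334 to 1.64) and Drosha cKO, on 1 read, at 0.124 times (0.00301 to 0.769). Leaving out 1 library, an alternative chosen after seeing the data, moved the Dicer ratio to 0.148 without Dicer cKO replicate 1, to 1.302 without Dicer cKO replicate 2 and to 0.499 without WT replicate 2. The Drosha ratio became 0.0813 without WT replicate 2. Without Drosha cKO replicate 1 that group had 0 reads, with a counting interval of 0 to 2.30 for the ratio. The intervals cover counting error only, not the spread between libraries. Without a low-count filter its edgeR adjusted p was 0.793 for Dicer cKO and 0.152 for Drosha cKO sperm, and neither passed. The mature arm is 21 bases long, against 23 for the other members, and the cause of its low count was not tested.

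Within the cluster, the shares of miR-17-5p and miR-18a-5p did not overlap between cKO and WT sperm, and those of the other members did. Both kinds of cKO were pooled for the tests of these shares. Within the 6-member reads, miR-17-5p took 6.01% and 7.36% in Dicer cKO, 6.98%, 3.67% and 4.53% in Drosha cKO, and 1.76% and 1.85% in WT sperm. All 5 cKO libraries were above both WT libraries. The mean was 5.71% ± 1.58 (SD, n = 5) in cKO and 1.80% ± 0.0675 (SD, n = 2) in WT sperm (exact two-sided permutation test, p = 0.0476, the smallest that 5 against 2 libraries can give, with 6 shares tested and no adjustment). The share of miR-18a-5p was 5.56% and 4.82% in Dicer cKO, 13.4%, 12.5% and 10.99% in Drosha cKO, and 15.7% and 16.3% in WT sperm. It was lower in all cKO libraries, and far lower in the Dicer cKO pair, and the difference of cKO from WT sperm did not pass the exact permutation test (p = 0.0952). The remaining shares overlapped between cKO and WT libraries: miR-19b-3p took 52.6% to 60.5% in cKO and 49.0% to 54.0% in WT sperm (exact permutation p = 0.19), and miR-20a-5p took 10.99% to 17.1% in cKO and 10.4% to 11.6% in WT sperm (exact permutation p = 0.143). miR-19a-3p took 10.5% to 19.6% in cKO and 18.04% to 21.3% in WT sperm (exact permutation p = 0.143), and for miR-92a-3p p was 0.905 by the same exact test. These shares sum to a whole, so they are not independent of each other.

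**Figure D2:**
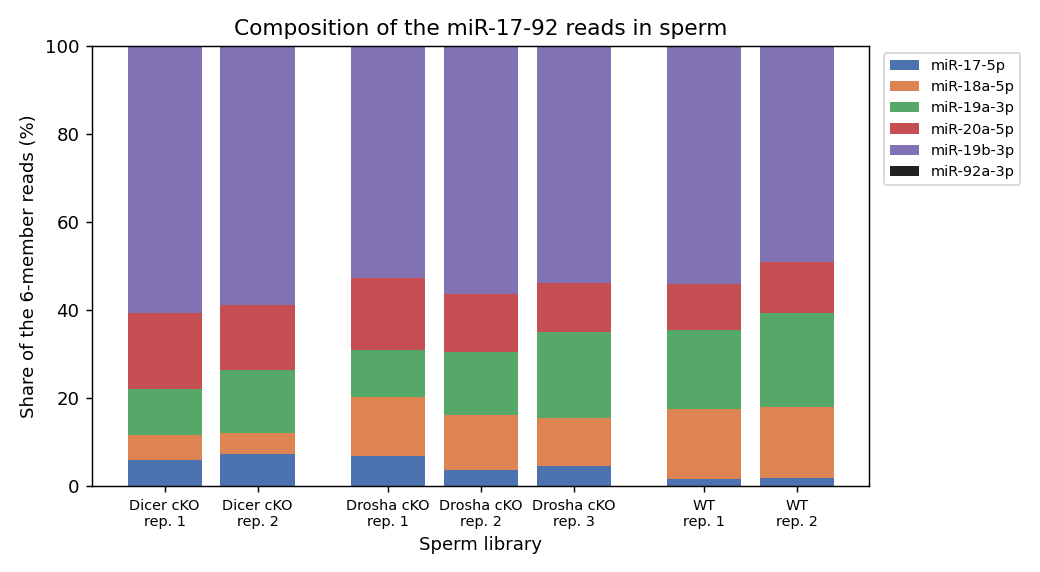
Share of the 6-member reads (%) taken by each member, as stacked bars, 1 per sperm library. miR-19b-3p fills 49.0% to 60.5% of each bar, the miR-17-5p segment at the base is deeper in the cKO bars than in the WT bars, miR-18a-5p is thin in Dicer cKO, and miR-92a-3p is too small to be seen.

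Ratios between members within a library use the same reads as the shares above and, like them, do not depend on any scaling. miR-20a-5p reads per miR-17-5p read were 2.85 and 2.01 in Dicer cKO, 2.36, 3.58 and 2.43 in Drosha cKO, and 5.91 and 6.24 in WT sperm. miR-18a-5p reads per miR-20a-5p read were 0.324 and 0.326 in Dicer cKO, 0.815, 0.953 and 1 in Drosha cKO, and 1.51 and 1.41 in WT sperm. Both ratios were lower in every cKO library than in either WT library, and the second separated the Dicer cKO from the Drosha cKO libraries as well. By contrast, miR-19a-3p reads per miR-18a-5p read overlapped between Drosha cKO and WT libraries. They were 1.90 and 2.95 in Dicer cKO, 0.784, 1.15 and 1.78 in Drosha cKO, and 1.15 and 1.31 in WT sperm.

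Dicer cKO and Drosha cKO sperm were also compared with each other. Male germ cell marker sums were lower, and blood cell marker sums higher, with Dicer cKO, as given below. The comparison cannot separate such differences from an effect of either enzyme. Whether the members depend differently on the 2 enzymes was thus not tested. None of the 5 tested members passed edgeR in this comparison, 0 had an unadjusted p under 0.05, and DESeq2 and limma called 0. Of all 335 features edgeR called 0%, with 65 at an unadjusted p under 0.05, DESeq2 called 16 and limma on log2(RPM + 1) called 2. Apart from miR-18a-5p, the log2 change of Dicer cKO over Drosha cKO was 0.61 for miR-17-5p (95% interval −0.57 to 1.78), 0.07 for miR-19a-3p (−0.90 to 1.03), 0.45 for miR-19b-3p (−0.37 to 1.26) and 0.51 for miR-20a-5p (−0.48 to 1.51). These intervals allow differences of up to about 1 to 2 on the log2 scale, so a like response is not shown. Without overlap in CPM stood 1 of the 5, miR-18a-5p, lower in Dicer cKO, as did 23.9% of all tested features.

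The opposite arms of the same hairpins, the strands usually degraded after Dicer cuts, were scarce apart from miR-17-3p. Of the 6, 2 passed the filter. miR-17-3p had 309 and 490.1 CPM in Dicer cKO, 367, 249.9 and 188 CPM in Drosha cKO, and 586 and 617 CPM in WT sperm. Its log2 change of −1.33 in Dicer cKO sperm did not pass (SE 0.674, edgeR adjusted p = 0.118), and that of −2.03 in Drosha cKO sperm did (SE 0.643, edgeR adjusted p = 0.0139), close to the values of miR-17-5p from the same hairpin. It made up 13.7% and 18.8% of the reads of both miR-17 arms in Dicer cKO, 14.02%, 20% and 12.5% in Drosha cKO, and 16.5% and 13.9% in WT sperm, and the 95% exact intervals of all 7 libraries overlapped. miR-20a-3p, on 33 reads in WT sperm, stood at −2.41 in Dicer cKO (SE 1.015) and −2.13 in Drosha cKO sperm (SE 1.069), with edgeR adjusted p of 0.0617 and 0.0998. miR-18a-3p and miR-19a-5p had at most 8 reads in any sperm library.

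The opposite arms also tell the chromosome 14 hairpins from those on chromosome X. For miR-19b, the chromosome 14 arm miR-19b-1-5p had 37 reads over all sperm libraries and the chromosome X arm miR-19b-2-5p had 0. For miR-92a, miR-92a-1-5p had 8 and miR-92a-2-5p had 1. The 10 arms of the miR-106a-363 cluster that have rows of their own, these chromosome X arms included, had 79 reads together in sperm, against 81198 for the 6 members, and none passed the filter. The part of each hairpin in the reads of the main arms was not tested.

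**Figure D3:**
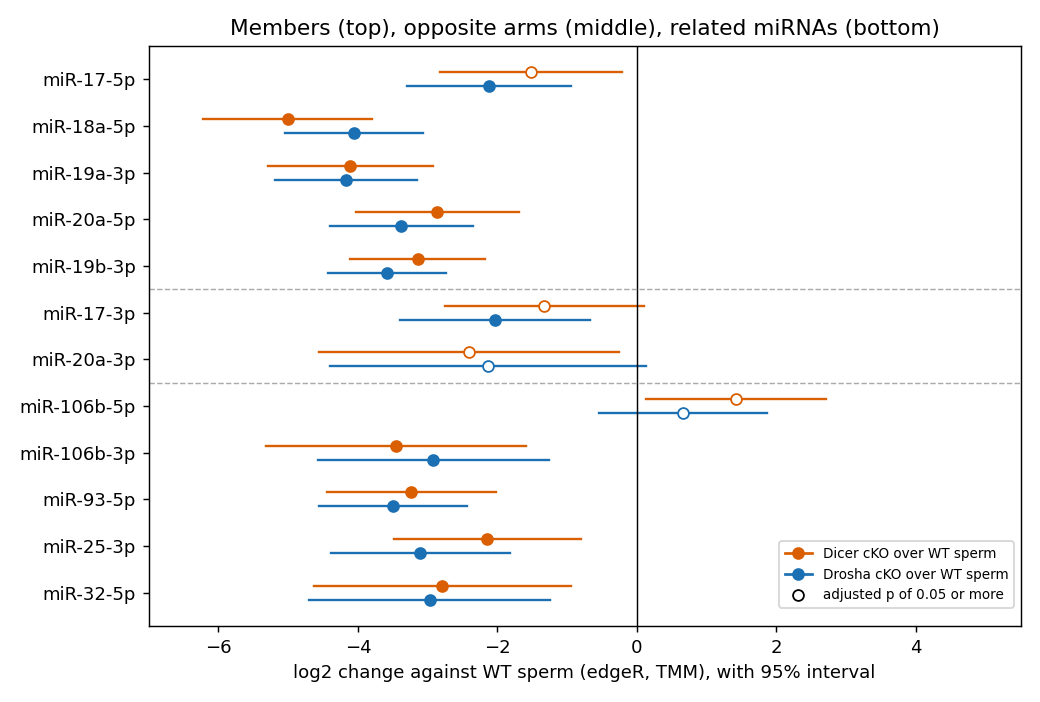
Log2 change against WT sperm with its 95% interval from the edgeR fit, for the 5 tested members (top), the 2 tested opposite arms (middle) and the tested relatives by seed or cluster (bottom), with open points for adjusted p of 0.05 or more. All points but those of miR-106b-5p lie left of 0, from −1.33 to −5.01.

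Relatives of the cluster were seldom abundant enough to test. Of 11 listed miRNAs that share a seed with a member without being one, 4 were tested, and 3 of them fell in Dicer cKO and 3 in Drosha cKO sperm, beside 31% and 33.1% of all tested features. They are miR-93-5p (−3.23 and −3.50), miR-25-3p (−2.14 and −3.10) and miR-32-5p (−2.79 and −2.97). The first value of each pair is for Dicer cKO and the second for Drosha cKO sperm, and all had edgeR adjusted p of at most 0.015. The CPM of miR-32-5p overlapped between Drosha cKO and WT sperm. It was 502 CPM in Drosha cKO replicate 3, and 436 and 1284 CPM in the WT libraries. miR-93-5p and miR-25-3p come from the paralog cluster miR-106b-25 on chromosome 5, inside the gene Mcm7, which encodes a subunit of the replication helicase. The exception was miR-106b-5p, also from that cluster and with the seed of miR-17-5p, in capitals (minus strand of chromosome 5):
miR-106b-5p (chr5:138165787-138165807): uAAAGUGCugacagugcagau
It had 3073 and 2552 CPM in Dicer cKO, 2061, 2416 and 1507 CPM in Drosha cKO, and 545 and 685 CPM in WT sperm. Its CPM was thus above both WT libraries in every cKO library, as held for 46.3% of tested features with Dicer cKO and 42.1% with Drosha cKO. Its log2 change of 1.42 with Dicer cKO (SE 0.610, edgeR adjusted p = 0.0671) did not pass, nor did that of 0.66 with Drosha cKO (SE 0.567, edgeR adjusted p = 0.333). The other arm of its hairpin, miR-106b-3p, changed by −3.45 in Dicer cKO (SE 0.879, edgeR adjusted p = 0.00401) and −2.92 in Drosha cKO sperm (SE 0.782, edgeR adjusted p = 0.00566). The 3p arm made up 3.32% and 3.50% of the reads of both arms in Dicer cKO, 12.2%, 3.33% and 0% in Drosha cKO, and 56.0% and 48.7% in WT sperm. In every cKO library the 3p arm was thus the minor one, while in WT sperm the arms were near equal. The difference between the miR-106b and miR-17 hairpins was not tested. The base differences from miR-17-5p to miR-106b-5p are C1U, U10G and G20A over their shared length.

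**Figure D4:**
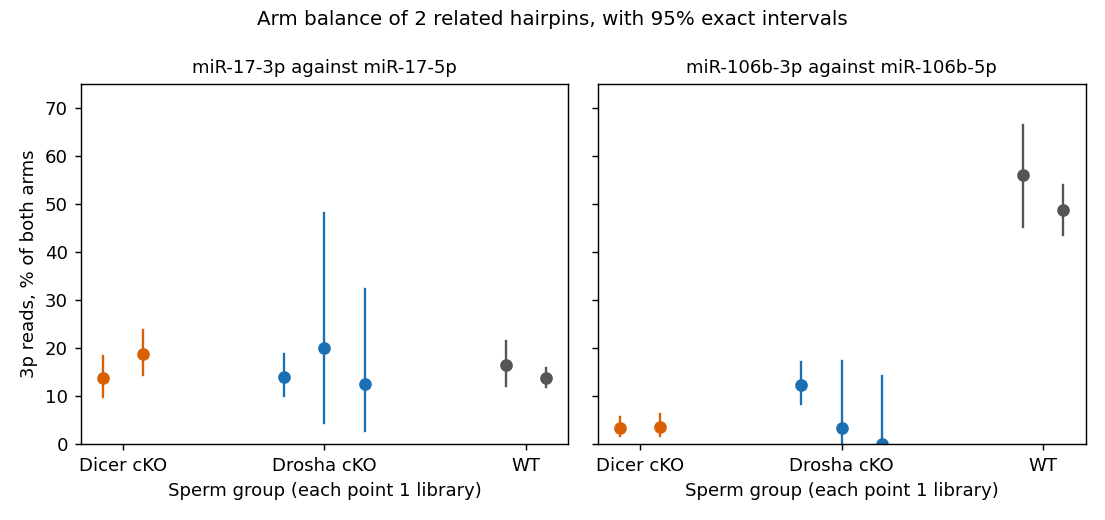
Reads of the 3p arm as a percentage of both arms, for the miR-17 hairpin (left) and the miR-106b hairpin (right), with each point 1 sperm library and its 95% exact (Clopper-Pearson) interval, which covers counting error only. The miR-17 points lie between 12.5% and 20% in all groups, and the miR-106b points lie at or under 12.2% in cKO and at 48.7% and 56.0% in WT sperm.

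Summed by seed, the cluster supplied most of 3 families in WT sperm and little of the fourth. The GUGCAAA family consists of miR-19a-3p and miR-19b-3p alone and took 2.30% and 2.10% of listed reads in Dicer cKO, 2.03%, 1.92% and 2.14% in Drosha cKO, and 12.2% and 14.5% in WT sperm. Of the AAAGUGC family, members of the cluster gave 56.9% and 57.3% in Dicer cKO, 57.8%, 52.9% and 59.5% in Drosha cKO, and 58.0% and 67.6% in WT sperm. The whole of that family took 1.32% and 1.11% of listed reads in Dicer cKO, 1.31%, 0.866% and 0.760% in Drosha cKO, and 3.54% and 4.10% in WT sperm. The AUUGCAC family was led by miR-25-3p and miR-32-5p, and miR-92a-3p gave 4.52% and 2.15% of its reads in WT sperm.

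Among 98 features outside these lists whose sperm mean reached 1000 CPM, the 5 whose log2(CPM + 10) followed the 6-member sum most closely over the 7 sperm libraries were miR-743a-3p (Pearson r = 0.970), miR-465c-5p (0.964), miR-741-3p (0.955), miR-34b-5p (0.952) and miR-669a-3p (0.945). Of these, miR-743a-3p, miR-741-3p and miR-34b-5p are also on the list of male germ cell miRNAs used as markers. The points share libraries and the difference between cKO and WT sperm, so these values are a description. Each of these miRNAs was lower in cKO sperm, as with miR-743a-3p at 524 CPM in Dicer cKO, 801 CPM in Drosha cKO and 11008 CPM in WT sperm. Within the cluster, each member's r with the sum of the others was 0.991 for miR-19b-3p, 0.974 for miR-20a-5p, 0.969 for miR-19a-3p, 0.935 for miR-18a-5p, 0.795 for miR-17-5p and 0.695 for miR-92a-3p.

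Marker miRNAs of several cell types, male germ cells among them, were compared between cKO and WT sperm as well. Their lists were chosen with earlier results of these data known. All 10 listed male germ cell miRNAs were called lower in both kinds of cKO sperm (31% of all tested features with Dicer cKO, 33.1% with Drosha cKO) and summed to 0.855% to 0.884% of listed reads in Dicer cKO, 1.44% to 2.53% in Drosha cKO and 16.7% to 18.6% in WT sperm. All 5 epithelial markers of the miR-200 family were called higher in both (16.1% of all tested features with Dicer cKO, 22.1% with Drosha cKO) and summed to 13.0% to 16.0% in Dicer cKO, 11.04% to 13.9% in Drosha cKO and 1.57% to 1.81% in WT sperm. Of 7 blood cell markers 4 were called higher in each comparison and 1 lower with Drosha cKO, with sums of 5.02% to 5.05% in Dicer cKO, 2.16% to 2.47% in Drosha cKO and 0.513% to 0.525% in WT sperm. Of 5 stromal markers 2 were called higher in Dicer cKO and 0 in Drosha cKO sperm, with sums of 1.87% to 2.61% in Dicer cKO, 1.08% to 1.69% in Drosha cKO and 0.315% to 0.795% in WT sperm. Of 6 oocyte or early embryo markers 2 were tested, and both were called lower in each comparison. No marker of the first 4 lists was at 0 in a sperm group. The germ cell markers are miRNAs of the cells that lack Dicer or Drosha. Lost processing and fewer germ cells therefore cannot be told apart by them. The part of other cells in the changes of the miR-17-92 members was not tested.

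In oocytes the members were almost undetected. The WT oocyte library held 6 reads of the 6 members, 2 each of miR-17-5p, miR-19b-3p and miR-20a-5p. That is 0.108% of its listed reads (95% exact interval 0.0398 to 0.236). The opposite arm miR-17-3p, not counted among them, had 4 reads there, more than miR-17-5p. The 2 WT sperm libraries had 12408 and 57656 reads of the 6 members. The 6-member share was thus 155.9-fold lower in the oocyte than in WT sperm replicate 1 (counting interval 71.6 to 425). It was 190.5-fold lower than in replicate 2 (87.5 to 519). miR-18a-5p and miR-19a-3p had 0 oocyte reads. The floor of 3 reads is 0.0542% of that library, and the exact 95% upper limit of the share is 0.0667%. At that floor, miR-18a-5p was at least 49.0-fold and 62.0-fold lower than in the WT sperm libraries, with exact 95% counting intervals that begin at 39.8-fold and 50.4-fold.

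WT 2PN embryos held more reads of the cluster than oocytes. The library had 26, made up of 14 of miR-19b-3p, 5 of miR-92a-3p, 4 of miR-19a-3p, 2 of miR-20a-5p, 1 of miR-17-5p and 0 of miR-18a-5p. That is 0.802% of its listed reads (95% exact interval 0.524 to 1.17), or 7.39 times the oocyte share (counting interval 2.97 to 22.0). miR-19b-3p alone stood at 14 reads in the 2PN library and 2 in the oocyte library, a ratio of 11.9 (2.74 to 108). Both groups are 1 library, so the interval covers counting error and no spread between embryos. Of the 23 features with at least 20 reads in either library 0% were past 4-fold higher, and no member reached 20 reads. The mix differed from that of sperm: miR-92a-3p gave 19.2% of the cluster's reads in the WT 2PN library, on 5 reads, while in WT sperm it gave 0.0564% and 0.0260%.

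With cKO sperm the counts in embryos were lower. The Dicer cKO 2PN library had 0 reads of all 6 members, which at the floor of 3 reads for the sum allows a share of up to 0.102% (exact 95% upper limit 0.125%). At that floor it was at least 7.89-fold below the WT 2PN library, with an exact 95% counting interval that begins at 5.97-fold. The Drosha cKO 2PN library had 10 reads, 3 each of miR-19a-3p and miR-92a-3p and 1 of each other member, or 0.112% (95% exact interval 0.0535 to 0.205). Its 6-member share was 7.19-fold lower than in the WT 2PN library (counting interval 3.35 to 16.7). These counts leave out the opposite arms. Of those, miR-17-3p had 0 reads in Dicer cKO, 3 in Drosha cKO and 7 in WT 2PN embryos. miR-20a-3p had 1 read in Dicer cKO and 0 in Drosha cKO and WT 2PN embryos. miR-19b-3p showed the clearest gap, with 0 reads in Dicer cKO, 1 read in Drosha cKO and 14 reads in WT 2PN embryos. Among features with at least 20 reads in either library, 36.8% of 19 were past 4-fold lower with Dicer cKO sperm and 6.9% of 29 with Drosha cKO sperm, so lower values were common in the Dicer cKO 2PN library. The 6 early embryo markers, of the miR-290 to miR-295 family, summed to 0.339% with Dicer cKO sperm, where 3 were at 0, to 1.42% with Drosha cKO sperm, to 4.04% with WT sperm, and to 2.93% in the oocyte library. The 10 male germ cell markers were all at 0 with Dicer cKO sperm and summed to 0.0558% with Drosha cKO sperm and 0.0925% with WT sperm. Their part in the embryo counts was not tested, and with single libraries no test of the genotype was possible.

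**Figure D5:**
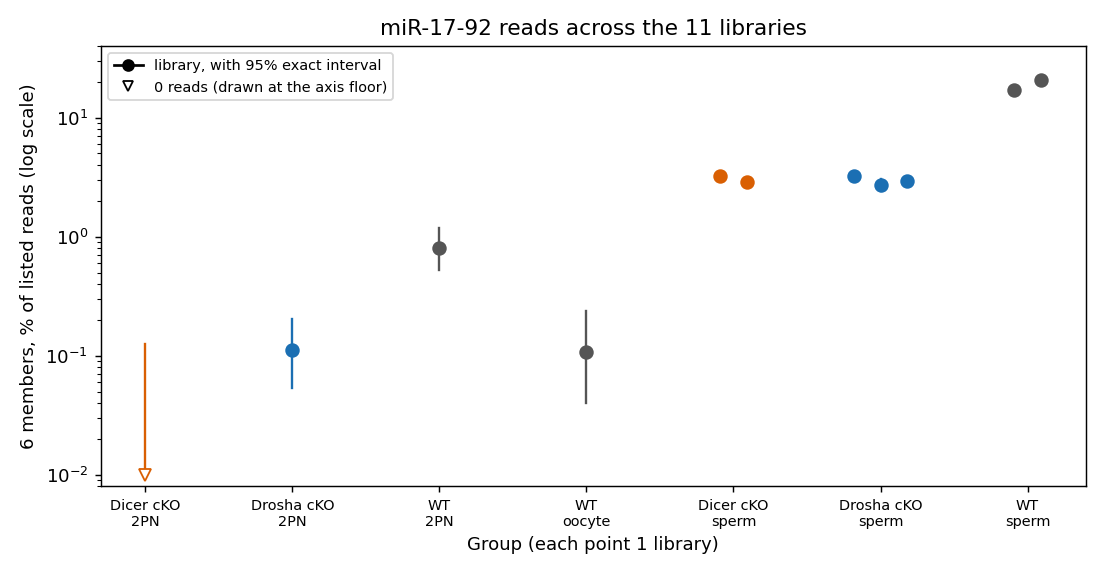
Reads of the 6 members as a percentage of listed reads, on a log scale, in all 11 libraries, with 95% exact (Clopper-Pearson) intervals that cover counting error only. Both cKO 2PN libraries and the WT oocyte library lie under WT 2PN at 0.802%, and all of these lie below the sperm libraries, where WT at 16.9% and 20.7% is above all cKO values.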

How the data were processed

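Raw counts per mature miRNA or endo-siRNA, as deposited by the authors, were used for all tests. The authors also deposited RPM values; every value came out as a whole read count (within 0.01) when multiplied by 1 divisor per library, which is larger than the listed reads and whose meaning the sources used here do not give. Recovered reads equalled the deposited counts, so the count test already is the test on whole reads. Bowtie and mm10 are named in the submitters' processing notes, with no versions, and the sources used here give neither the counting rule nor the miRNA release. Mature sequences and positions are from RefSeq on GRCm38.p6, where all 6 members matched by name, and no genome sequence was read.

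All 7 sperm libraries were fitted together in edgeR 4.0.16 (R 4.3.3) with TMM, the default expression filter (335 features) and the quasi-likelihood test, two-sided, adjusted by Benjamini-Hochberg over all tested features at 0.05. Alternatives used limma 3.58.1, DESeq2 1.42.0, other scalings and filters, and leaving out libraries. The script was checked on simulated counts. Shares within the cluster were compared by an exact permutation test. For the unreplicated oocyte and 2PN libraries, ratios carry exact intervals for counting error, with a floor of 3 reads and no p. Replicates of each sperm group differed beyond sampling noise (lowest chi-square over its degrees of freedom 5.74). The text names all 6 members, their opposite arms and tested relatives by cluster or seed, and the 5 features most like the cluster. Members and lists were chosen with earlier results of these data known.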

Additional observations from a re-analysis of the deposited data

How the results depend on the processing

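Of 95 member values under alternatives, the call stayed as reported in 84 for Dicer cKO against WT sperm (4 lost, 7 gained) and in 93 for Drosha cKO (2 lost), and none changed sign. With limma on log2(RPM + 1) or log2(RPM + 10) the members called lower in Dicer cKO sperm were 2, with miR-19b-3p and miR-20a-5p lost. Shares of all features called lower are not given for the alternatives. Leaving out 1 library gave 4 to 5 for Dicer cKO, 5 for Drosha cKO and 0 for Dicer cKO against Drosha cKO. In that last comparison miR-19a-3p turned to −0.21 with library totals alone, −0.055 without Drosha cKO replicate 1 and −0.02 without Drosha cKO replicate 2, none of them called, within −0.055 to 0.54 over the values without 1 library. The miR-92a-3p share difference of cKO from WT sperm, in percentage points, turned to −0.031 with Drosha cKO alone and −0.0255 without Dicer cKO replicate 1, within −0.0255 to 0.0373 over the values without 1 library. With the authors' divisor the 6-member level of the WT oocyte was 0.00146 and 0.000255 times that of the WT sperm libraries, against 0.00642 and 0.00525 as reported. Library totals alone moved the median change of all features to 0.60 for Dicer cKO and 1.04 for Drosha cKO sperm.

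With the replicate number as a block, 5 members were called in Dicer cKO, 5 in Drosha cKO and 0 between them. The shares of all features called in that fit are not given, so these counts have no background beside them. Same-numbered libraries of Dicer cKO and WT sperm deviated together with r = 0.312. With 2 libraries in each group, both pairs give this same value by construction. For Drosha cKO and WT sperm r was 0.255 for replicate 1 and 0.195 for replicate 2. The labels give no shared animal or day, so the numbers were not taken as pairing. The cause of these shifts was not tested. Depth limits miR-92a-3p in sperm and every member in oocytes and embryos, where 1 read is 111.5 CPM or more.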

Other observations

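Of the relatives by seed, only miR-25-3p and miR-106b-5p had reads in the oocyte library and in all 3 embryo libraries. No other had more than 2 reads in any of them. miR-93-5p had 2 reads in the Drosha cKO 2PN library and 0 in the Dicer cKO 2PN, WT 2PN and oocyte libraries. miR-25-3p, with the seed of miR-92a-3p, had 7 reads in the Dicer cKO, 33 in the Drosha cKO and 5 in the WT 2PN library, and 14 in the oocyte library. miR-106b-5p, with the seed of miR-17-5p, had 1, 30 and 3 reads in the same 2PN libraries and 8 in the oocyte library. In the Drosha cKO 2PN library these 2 miRNAs stood at 3680 and 3346 CPM, while miR-19b-3p stood at 112 CPM. The members of the cluster with the AAAGUGC seed gave 5.71% of that family's reads there, against 50% in the WT 2PN library on 6 reads.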
